A study of Mus musculus with 20 samples.

Results

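The genes described here are 35 genes of Kupffer cells and other macrophages, measured by bulk RNA sequencing in 20 livers of obese diabetic mice. They were chosen by symbol as known genes of these cells, with earlier results of these data known, and all 35 were found among the 22298 genes listed for each liver. They fall into 5 sets: 9 genes of resident Kupffer cells, 10 genes shared by most macrophages (called the macrophage core), 5 genes of monocytes and recruited cells, 5 genes of lipid-associated macrophages and 6 inflammatory mediators. Of the 35, 34 passed the filter on low counts and were tested. Tnf did not, with 0 to 8 counts per liver and 9 livers at 3 counts or fewer.

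Kupffer cells are the macrophages that live in the sinusoids of the liver, where they take up particles, bacteria, old red cells and modified lipoproteins from portal blood. In fatty liver disease, resident cells can be lost and replaced by macrophages that arise from blood monocytes, and some of these cells become lipid-associated macrophages, which lie near lipid-laden hepatocytes and express a lysosomal and lipid-handling program. Bulk liver RNA comes largely from hepatocytes, so these genes report on a minor part of the tissue. In such samples, fewer cells of a type and less RNA per cell cannot be told apart.

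The livers came from male Lepr db/db animals, whose leptin receptor is defective so that they grow obese and diabetic. Each mouse, at an age of 5 weeks, received an adeno-associated virus (AAV8) through the tail vein. The virus carried either a non-targeting shRNA (Vec) or an shRNA against Pparg (shRNA), and no driver of the shRNA that would limit it to one cell type is given in the sources used here. Mice were then gavaged each day for 4 weeks with benzbromarone (BBR), a uricosuric drug, at 25 mg per kg, or with the vehicle. The 4 groups of 5 livers are thus Vec (labelled control), Vec+BBR (benzbromarone), shRNA (PPAR knockdown) and shRNA+BBR (PPAR knockdown with benzbromarone), with 1 library per sample. The labels say of the replicates only that they are separate samples, so p-values measure the spread between these samples. All 4 groups carry the db/db mutation and a virus, and there were no lean or virus-free livers among them.

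Total counts per library were between 17432904 and 25024099, and 3 counts, taken as the floor, correspond to 0.12 to 0.172 CPM (counts scaled to a common library total). Pparg, the targeted gene, was at 16.4, 20.1, 35.9, 19.4 and 32.1 CPM in Vec livers, 34.8, 29.8, 28, 28.1 and 38.3 in Vec+BBR livers, 7.31, 6.53, 5.96, 3.24 and 5.63 in shRNA livers and 11.4, 9.99, 21.8, 18.9 and 7.19 in shRNA+BBR livers. Every shRNA liver was below every Vec liver for Pparg, and every shRNA+BBR liver was below every Vec+BBR liver. Against the untreated Vec livers, however, shRNA+BBR replicates 3 and 4 (21.8 and 18.9 CPM) lay within the range (16.4 to 35.9 CPM). BBR raised Pparg in the shRNA livers, as given further on. All 9 resident Kupffer genes were above the floor in all 20 libraries, with Clec4f, a C-type lectin specific to Kupffer cells in the mouse, at 586 counts or more in each, and the summed level of 13 hepatocyte genes was 115000 to 184000 CPM. Vec replicate 2 stood apart from the other Vec livers: its summed CPM was the lowest of the 5 for resident Kupffer genes (189 against 254 to 341), for the macrophage core (168 against 309 to 399) and for T and NK cell genes (2.25 against 10.5 to 19.2). Numbers of members called with BBR and in shRNA against Vec livers, and correlations between genes, are given with and without it. Fold changes and summed levels are given with it, apart from ranges over other fits.

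The plainest pattern was in the lipid-associated set. All 5 of its genes rose with BBR in the Vec livers, and all 5 rose with BBR in the shRNA livers, by log2 fold changes of 0.79 to 1.96 and 1.08 to 2.24. Of the 9 resident Kupffer genes, none rose with BBR in either vector group, Marco and Timd4 fell in the Vec livers and Cd163 fell in the shRNA livers, while Clec4f, Vsig4 and Cd5l passed the test in no comparison. Over all members, BBR raised 10 and lowered 2 in the Vec livers, where 7.58% and 7.88% of all 12342 genes tested were called higher and lower. In the shRNA livers BBR raised 14 and lowered 1, against 8.37% and 7.28% of all genes. A gene is called here when its adjusted p-value from the quasi-likelihood test of edgeR, with Benjamini-Hochberg adjustment over all genes tested, is under 0.05. The 2 BBR comparisons share no livers, but each shares livers with the comparisons of the vectors given further on.

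**Figure D1:**
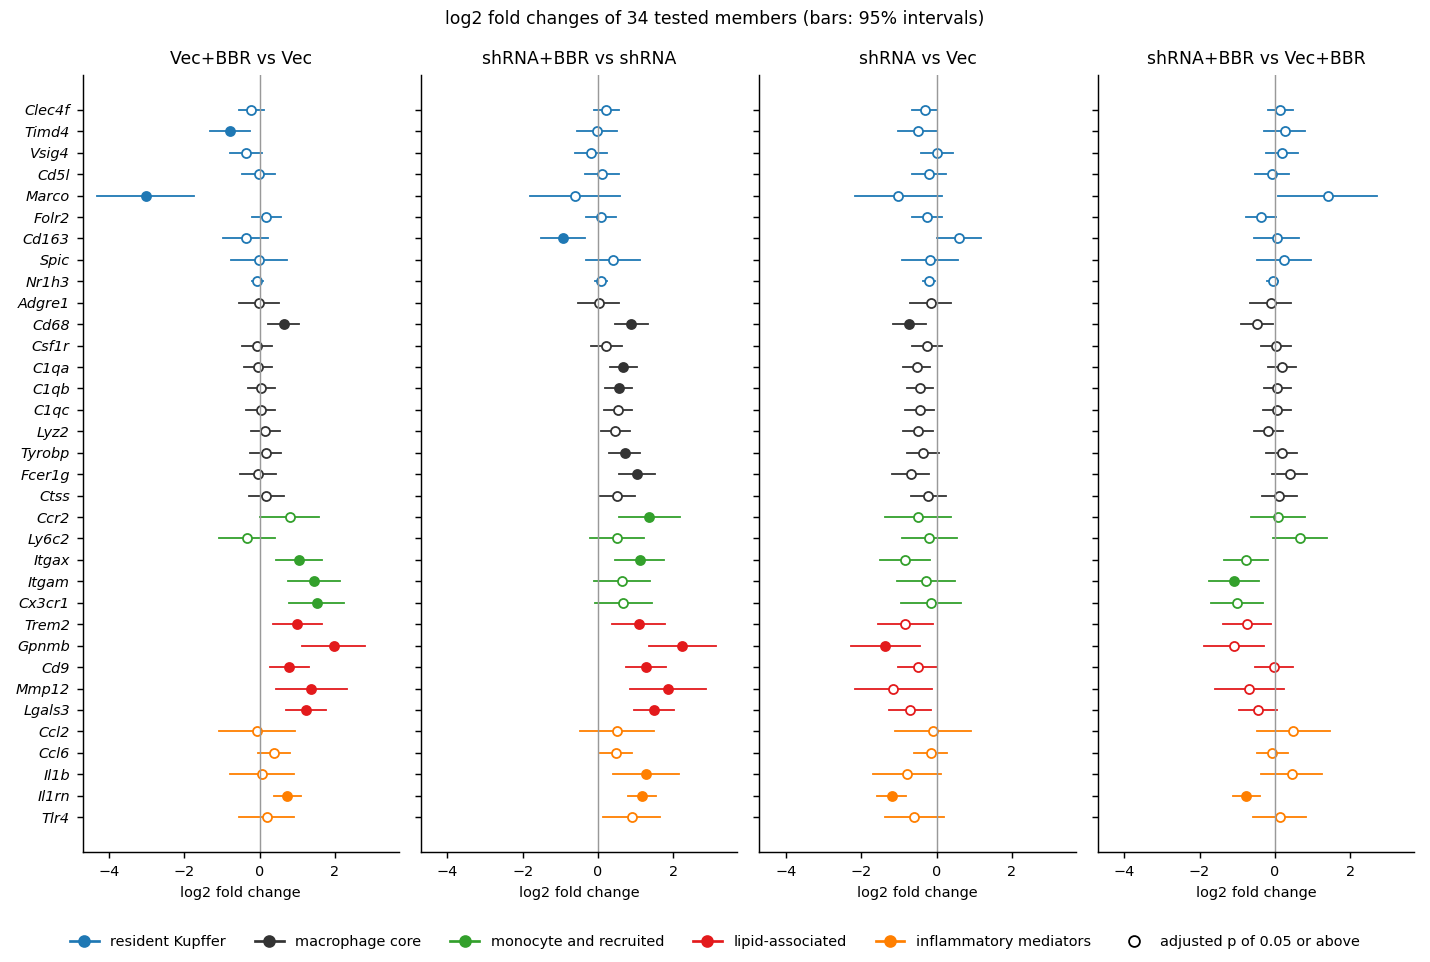
log2 fold changes (x axis) of the 34 tested members (rows, coloured by set) in 4 comparisons, with bars for 95% intervals and filled points for adjusted p-values under 0.05. The 5 lipid-associated genes (red) are filled and right of 0 in both BBR comparisons. Of the 9 resident Kupffer genes (blue), 1 is right of 0 with BBR in the Vec livers and 5 in the shRNA livers. Only Marco, Timd4 and Cd163 have filled points in this set.

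Gpnmb (ENSMUSG00000029816, chromosome 6 from 49036546 to 49070929) encodes a transmembrane glycoprotein of lysosome-rich, lipid-laden macrophages. It was at 2.71, 5.91, 9.32, 4.06 and 6.88 CPM in the Vec livers and at 7.05, 36.3, 22.7, 25.1 and 21.7 CPM in the Vec+BBR livers. Of the 5 Vec+BBR livers, 4 were above every Vec liver, and the other, Vec+BBR replicate 1, lay within the Vec range. The log2 fold change was 1.96 ± 0.40 (SE), a 3.90-fold rise (edgeR adjusted p = 0.00261). In the shRNA livers Gpnmb was at 2.24, 3.63, 2.86, 1.23 and 1.38 CPM, and the 5 values under BBR were 12.6, 6.46, 12.5, 16.8 and 4.60 CPM. These groups did not overlap, and the log2 fold change was 2.24 ± 0.43 (edgeR adjusted p = 0.00457).

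Lgals3 (ENSMUSG00000050335, chromosome 14 from 47367751 to 47386160), which encodes galectin-3, a sugar-binding protein of activated macrophages, behaved alike. Its levels were 10.4, 6.11, 14.4, 7.50 and 11.6 CPM in Vec livers and 16.5, 28.7, 20.7, 31.8 and 20.6 CPM in Vec+BBR livers. They were 5.53, 7.25, 6.08, 7.80 and 4.21 CPM in shRNA livers and 15.3, 15.9, 21.2, 24.8 and 8.95 CPM in shRNA+BBR livers. No treated liver overlapped the untreated livers of its vector. The log2 fold changes were 1.23 ± 0.25 (edgeR adjusted p = 0.00273) and 1.48 ± 0.26 (edgeR adjusted p = 0.00366).

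Trem2 (ENSMUSG00000023992, chromosome 17 from 48346401 to 48354147), the lipid-sensing receptor that marks these macrophages, was a low gene, with 8 to 65 counts per liver. It was at 0.651, 1.86, 1.32, 0.811 and 1.51 CPM in Vec livers and 1.80, 2.69, 3.09, 2.19 and 2.45 CPM in Vec+BBR livers, where only Vec+BBR replicate 1 lay below the highest Vec liver. It was at 0.365, 1.34, 0.483, 0.701 and 0.625 CPM in shRNA livers and 0.921, 1.16, 2.37, 1.69 and 1.17 CPM in shRNA+BBR livers. Here shRNA replicate 2 was above 3 of the 5 shRNA+BBR livers. The log2 fold changes were 0.99 ± 0.31 (edgeR adjusted p = 0.0355) and 1.08 ± 0.34 (edgeR adjusted p = 0.0364).

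Mmp12 (ENSMUSG00000049723, chromosome 9 from 7344381 to 7369499), the macrophage elastase, had a wide spread within groups. Its levels were 2.60, 2.19, 9.17, 2.18 and 7.11 CPM in Vec livers and 6.63, 17.7, 11.4, 15.2 and 9.89 CPM in Vec+BBR livers. They were 2.47, 3.01, 1.73, 2.94 and 0.542 CPM in shRNA livers and 5.82, 4.97, 14.5, 9.90 and 2.84 CPM in shRNA+BBR livers. In each vector group 4 of the 5 treated livers were above every untreated liver. The log2 fold changes were 1.37 ± 0.45 (edgeR adjusted p = 0.0437) and 1.84 ± 0.48 (edgeR adjusted p = 0.0176).

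Cd9 (ENSMUSG00000030342, chromosome 6 from 125460266 to 125494791) encodes a tetraspanin that is part of the lipid-associated signature but is also made by other liver cells. It was at 8.32, 7.97, 16.1, 5.32 and 8.76 CPM in Vec livers and at 15.5, 17.02, 14.4, 17.7 and 16.1 CPM in Vec+BBR livers. Vec replicate 3, the highest Vec liver, lay inside the Vec+BBR range. Cd9 was at 7.22, 8.26, 6.76, 5.30 and 5.42 CPM in shRNA livers and at 8.38, 20.6, 18.1, 20.8 and 11.3 CPM in shRNA+BBR livers, with no overlap. The log2 fold changes were 0.79 ± 0.25 (edgeR adjusted p = 0.0334) and 1.27 ± 0.25 (edgeR adjusted p = 0.00487).

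**Figure D2:**
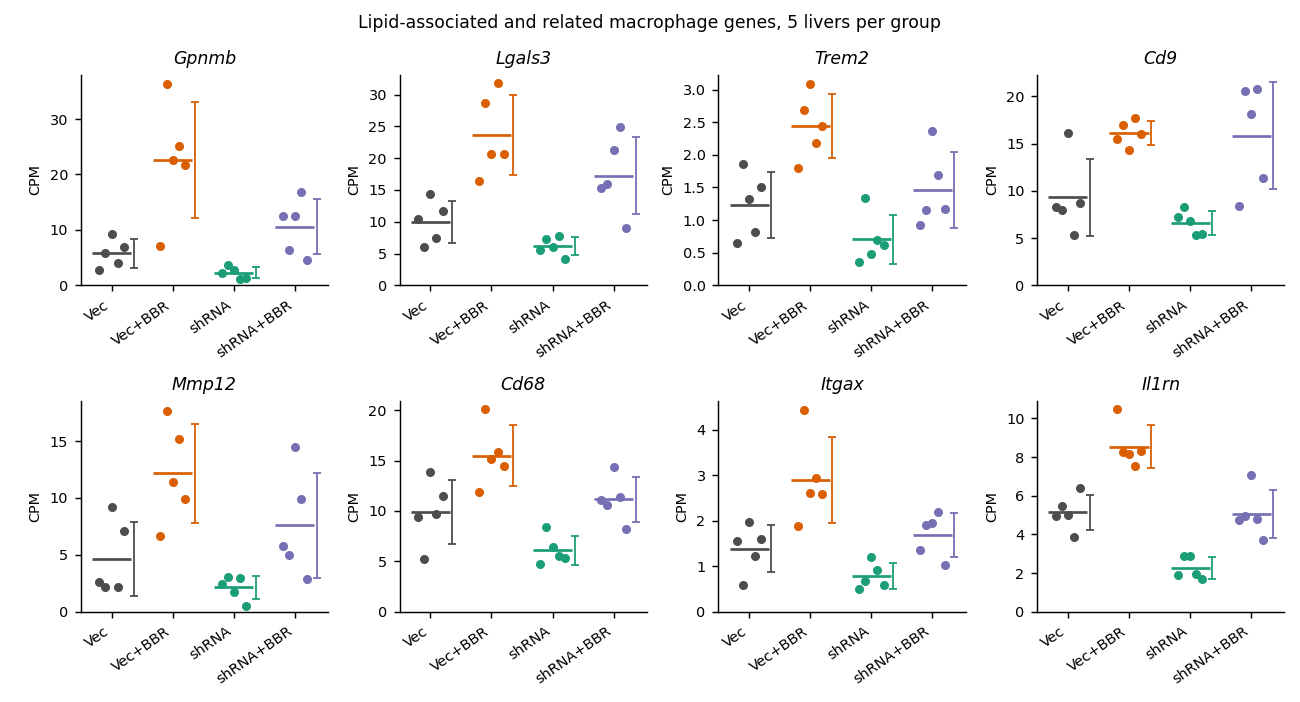
CPM (y axes, from 0) of 8 macrophage genes in each of the 20 livers by group (x axis), with points for livers, horizontal lines for group means and error bars for the SD. In all 8 panels the mean of Vec+BBR is above Vec and the mean of shRNA+BBR is above shRNA, and the shRNA mean is the lowest of the 4.

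The median log2 fold change of the lipid-associated set was 1.23 in the Vec livers and 1.48 in the shRNA livers, beside -0.01 and 0.01 over all genes tested. Its summed level was 19.9 to 50.3 CPM in Vec, 47.4 to 102 in Vec+BBR, 12.2 to 23.5 in shRNA and 28.9 to 74 in shRNA+BBR livers. Gpnmb and Lgals3 were called in both BBR comparisons in each of 20 fits that left out 1 library. In the Vec livers the calls of Trem2, Cd9 and Mmp12 were lost in 6, 7 and 9 of these fits, with adjusted p-values up to 0.105, 0.085 and 0.115. In the shRNA livers Trem2 was lost in 6 fits (edgeR adjusted p up to 0.128), Mmp12 in 1, without shRNA+BBR replicate 3 (edgeR adjusted p = 0.0685), and Cd9 in none.

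The sequences around the start sites of these genes are shown because the 5 genes rose together. They are RefSeq sequence on GRCm38.p6 from 120 bases before to 29 bases after the annotated start, 150 bases each, written 5′ to 3′ along the gene, and Mmp12 has 2 annotated starts. Marco and Clec4f, resident Kupffer genes that did not rise with BBR, are given beside them. Capitals mark matches to the motifs listed after them, and a match on the other strand appears as its reverse complement.
Gpnmb (chr6:49036398-49036547, + strand): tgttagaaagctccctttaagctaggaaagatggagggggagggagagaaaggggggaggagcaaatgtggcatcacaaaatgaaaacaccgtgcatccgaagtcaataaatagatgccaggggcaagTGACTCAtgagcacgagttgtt
Lgals3 (chr14:47373740-47373889, + strand): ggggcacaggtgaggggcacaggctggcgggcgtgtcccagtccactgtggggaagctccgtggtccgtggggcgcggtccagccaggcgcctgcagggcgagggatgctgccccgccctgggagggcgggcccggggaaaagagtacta
Trem2 (chr17:48346281-48346430, + strand): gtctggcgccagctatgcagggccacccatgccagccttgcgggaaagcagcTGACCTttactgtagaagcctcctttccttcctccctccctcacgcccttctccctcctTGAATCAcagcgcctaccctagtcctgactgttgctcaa
Mmp12 (chr9:7344277-7344426, + strand): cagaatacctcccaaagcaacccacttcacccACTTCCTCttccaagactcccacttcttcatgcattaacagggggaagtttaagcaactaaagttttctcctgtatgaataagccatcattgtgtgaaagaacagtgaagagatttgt
Mmp12 (chr9:7347254-7347403, + strand): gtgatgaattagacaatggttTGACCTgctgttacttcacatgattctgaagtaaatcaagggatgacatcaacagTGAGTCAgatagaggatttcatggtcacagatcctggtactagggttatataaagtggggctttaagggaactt
Cd9 (chr6:125494731-125494880, - strand): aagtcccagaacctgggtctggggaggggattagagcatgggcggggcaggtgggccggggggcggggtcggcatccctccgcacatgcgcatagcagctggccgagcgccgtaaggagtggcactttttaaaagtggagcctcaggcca
Marco (chr1:120504995-120505144, - strand): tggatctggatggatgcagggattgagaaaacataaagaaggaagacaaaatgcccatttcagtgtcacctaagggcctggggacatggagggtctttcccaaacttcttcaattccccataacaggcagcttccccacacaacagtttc
Clec4f (chr6:83656087-83656236, - strand): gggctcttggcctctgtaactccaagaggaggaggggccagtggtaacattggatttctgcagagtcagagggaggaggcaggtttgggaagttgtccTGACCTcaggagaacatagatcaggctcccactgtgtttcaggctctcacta

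For 29 of the 35 members the tables used here held 35 windows of 300 bases, from 250 before to 50 after the start. Motifs were searched on both strands in these and in 32851 windows of all genes. The AP-1 motif TGANTCA was in windows of 7 members, Gpnmb, Trem2, Mmp12, Cd68, Itgax, Il1rn and Folr2, and in 7.81% of all windows. In Gpnmb it starts 8 bases after the start site, in Trem2 9 bases before it and in Mmp12 44 bases before the start at which it occurs. The half-site AGGTCA of nuclear receptors was in windows of 8 members, among them Trem2, Mmp12, Clec4f and Timd4, and in 16.3% of all windows. A PU.1-type motif, GAGGAAGT, was in windows of C1qc, Ctss, Ly6c2 and Mmp12 and in 3.2% of all windows. The E-box CACGTG (7.15% of all windows) and the C/EBP-type motif TTGCGCAA (0.183%) were in no member window. A match to letters is a description and not a measured site. The windows of Cd9 and Lgals3 held none of the 5 motifs and 18 CpG dinucleotides each, against 0 to 9 in the windows of Gpnmb, Trem2 and Mmp12.

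Most genes of the resident Kupffer set did not pass the test with BBR. Clec4f (ENSMUSG00000014542, chromosome 6 from 83644542 to 83656187) was at 65.2, 37.7, 59.4, 66.5 and 74.9 CPM in Vec livers and 61.4, 53.6, 56.6, 37.2 and 51.3 CPM in Vec+BBR livers. It was at 43.3, 50.1, 54.3, 55.02 and 42.8 CPM in shRNA livers and 52.5, 58.01, 67.2, 43.6 and 64.9 CPM in shRNA+BBR livers. The 4 groups overlapped, and the log2 fold changes with BBR were -0.23 (95% interval -0.55 to 0.10) in Vec and 0.22 (-0.11 to 0.55) in shRNA livers. Intervals of this width leave room for a loss or gain of up to about 0.55 on the log2 scale.

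Vsig4, a complement receptor of resident macrophages, was at 31.6, 12.2, 20.6, 33.3 and 23.8 CPM in Vec livers and 23.2, 19.98, 21.8, 13.2 and 17.2 CPM in Vec+BBR livers. It was at 23.8, 24.2, 27.3, 27.3 and 20.6 CPM in shRNA livers and 17.4, 22.6, 29.1, 20.4 and 19.3 CPM in shRNA+BBR livers. Cd5l, a secreted protein of lipid-exposed tissue macrophages, was at 81.3, 34.96, 73.5, 106 and 110.3 CPM in Vec and 82.9, 95.1, 86.5, 53.2 and 81.1 CPM in Vec+BBR livers. Both genes overlapped between all groups, with Vec replicate 2 the lowest of all 20 livers for each. Cd5l was at 62.1, 81.2, 73.6, 78.3 and 57.4 CPM in shRNA and 69.7, 78.5, 93.9, 61.3 and 73.8 CPM in shRNA+BBR livers. The log2 fold changes with BBR were -0.35 ± 0.20 and -0.18 ± 0.20 for Vsig4, and -0.03 ± 0.21 and 0.10 ± 0.22 for Cd5l, none of which passed the test. In the Vec livers, other settings and fits without 1 library gave -0.52 to -0.21 for Vsig4 and -0.22 to 0.11 for Cd5l. For Clec4f they gave -0.36 to -0.13, and none of these genes was called.

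Timd4 (ENSMUSG00000055546, chromosome 11 from 46810800 to 46844332), the phosphatidylserine receptor that marks long-lived resident macrophages, was at 5.66, 1.93, 2.84, 6.95 and 4.52 CPM in Vec livers and 2.95, 2.33, 3.04, 2.05 and 2.45 CPM in Vec+BBR livers. The Vec livers ranged from below the lowest to above the highest Vec+BBR liver. The log2 fold change was -0.78 ± 0.25 (edgeR adjusted p = 0.041). This call was lost in 7 of the 20 fits without 1 library (edgeR adjusted p up to 0.132), among them those without Vec replicate 1, 4 or 5. In shRNA and shRNA+BBR livers Timd4 was at 2.42, 3.12, 3.54, 3.94 and 2.58 CPM and 2.28, 3.52, 3.27, 2.65 and 3.57 CPM, a log2 difference of -0.03 ± 0.25.

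Marco (ENSMUSG00000026390, chromosome 1 from 120474538 to 120505024), a scavenger receptor for bacteria and particles, fell the furthest of all members. It was at 26.9, 2.44, 6.18, 29 and 9.19 CPM in Vec livers and 1.41, 1.61, 3.66, 0.58 and 1.84 CPM in Vec+BBR livers. Only Vec replicate 2 was within the Vec+BBR range, and Vec replicates 1 and 4 were far above the other 3 Vec livers. Marco decreased by 3.03 ± 0.62 (log2, edgeR adjusted p = 0.00287), and the call was kept in each of the 20 fits without 1 library. In shRNA livers Marco was at 1.55, 9.21, 12.6, 7.84 and 5.25 CPM and in shRNA+BBR livers at 2.04, 6.84, 8.05, 3.38 and 3.52 CPM. Every shRNA+BBR liver lay within the shRNA range (log2 difference -0.61 ± 0.57, edgeR adjusted p = 0.472).

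Cd163, the receptor for haemoglobin bound to haptoglobin, was at 9.87, 3.34, 4.32, 11.9 and 6.55 CPM in Vec and 6.46, 6.32, 4.95, 4.29 and 5.98 CPM in Vec+BBR livers. It was at 9.91, 11.5, 12.97, 11.7 and 8.75 CPM in shRNA livers and 3.34, 6.67, 5.87, 3.92 and 9.05 CPM in shRNA+BBR livers. Of the shRNA+BBR livers, 4 were below every shRNA liver and shRNA+BBR replicate 5 was within their range. Cd163 fell by 0.92 ± 0.28 (log2) with BBR in the shRNA livers (edgeR adjusted p = 0.0328), a call lost in 7 of the 20 fits without 1 library (edgeR adjusted p up to 0.0783).

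The other members of the set did not pass the test in any comparison. Folr2, the folate receptor beta of resident macrophages, had group means of 4.58 ± 1.38, 5.20 ± 1.14, 3.83 ± 0.327 and 4.03 ± 0.502 CPM (SD, n = 5) in Vec, Vec+BBR, shRNA and shRNA+BBR livers. Spic, the transcription factor of iron-recycling macrophages, was near the lower end at 6 to 36 counts per liver, with fractional counts in 6 libraries. Nr1h3, which encodes the oxysterol receptor LXRα, is used by hepatocytes as well as Kupffer cells, and its levels, 81.1 to 93.3 CPM in Vec and 78.1 to 88.4 CPM in Vec+BBR livers, did not follow the other 8 genes from liver to liver. The median log2 fold change of the set with BBR was -0.23 in Vec and 0.07 in shRNA livers. Its summed level was 189 to 341 CPM in Vec, 193 to 274 in Vec+BBR, 221 to 264 in shRNA and 210 to 289 in shRNA+BBR livers. These sums include Nr1h3, with group means of 75.1 to 85.8 CPM.

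**Figure D3:**
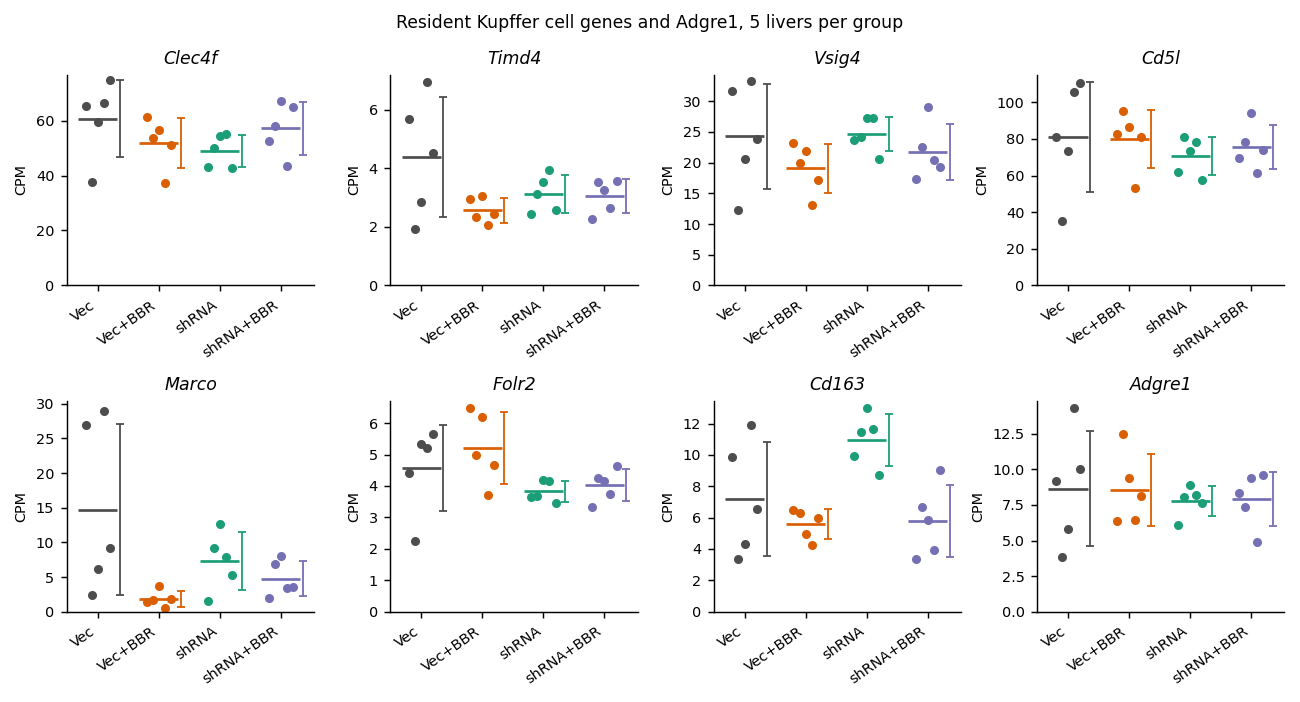
CPM (y axes, from 0) of 7 resident Kupffer genes and of Adgre1 in each of the 20 livers by group (x axis), with points for livers, horizontal lines for means and error bars for the SD. The groups overlap for Clec4f, Vsig4, Cd5l, Folr2 and Adgre1, Marco is low in all 5 Vec+BBR livers, and Cd163 is highest in the shRNA group.

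Among the macrophage core genes, Cd68 alone rose with BBR in the Vec livers, and 5 of 10 rose in the shRNA livers. Adgre1, which encodes the F4/80 antigen, was at 9.17, 3.86, 5.84, 14.3 and 10.03 CPM in Vec livers and 6.37, 12.5, 9.42, 6.43 and 8.14 CPM in Vec+BBR livers. It was at 6.12, 8.09, 8.94, 8.19 and 7.67 CPM in shRNA livers and 8.34, 7.38, 9.38, 4.88 and 9.63 CPM in shRNA+BBR livers. Its log2 fold changes with BBR were -0.02 (95% interval -0.56 to 0.52) and 0.02 (-0.52 to 0.56), and the groups overlapped throughout. Csf1r, the receptor for the growth factors that macrophages need, had means of 42.1 ± 15.1, 40.3 ± 7.23, 35.2 ± 5.87 and 41.1 ± 6.05 CPM (SD, n = 5) in Vec, Vec+BBR, shRNA and shRNA+BBR livers and passed the test in no comparison. For Csf1r 19 libraries hold fractional counts, so part of its reads may be shared.

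Cd68 (ENSMUSG00000018774, chromosome 11 from 69664213 to 69666153), a lysosomal membrane protein of macrophages, also rose in both vector groups. It was at 9.37, 5.21, 13.9, 9.68 and 11.4 CPM in Vec livers and 11.9, 20.1, 15.1, 15.9 and 14.4 CPM in Vec+BBR livers. It was at 4.75, 8.37, 6.44, 5.52 and 5.29 CPM in shRNA livers and 11.1, 10.6, 14.4, 11.4 and 8.22 CPM in shRNA+BBR livers. In each vector group 4 of the 5 treated livers were above every untreated liver. The log2 fold changes were 0.64 ± 0.20 (edgeR adjusted p = 0.0373) and 0.88 ± 0.21 (edgeR adjusted p = 0.0112). The first call was lost in 7 of the 20 fits without 1 library, Vec replicate 2 among them (edgeR adjusted p up to 0.12), and the second in none.

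Fcer1g and Tyrobp encode the signalling adaptors through which TREM2 and Fc receptors act. Fcer1g was at 13.5, 4.95, 11.2, 11.9 and 8.62 CPM in Vec and 10.6, 9.54, 12.03, 7.28 and 9.32 CPM in Vec+BBR livers, and at 5.48, 6.81, 7.25, 6.70 and 4.96 CPM in shRNA and 9.35, 18.1, 16.3, 11.5 and 8.61 CPM in shRNA+BBR livers. It rose with BBR in the shRNA livers, without overlap, by 1.04 ± 0.23 (edgeR adjusted p = 0.00849), while the log2 difference in the Vec livers was -0.04 ± 0.23. Tyrobp was at 12.2, 6.81, 13.5, 11.1 and 13 CPM in Vec and 16.5, 10.97, 13.4, 10.3 and 12.2 CPM in Vec+BBR livers, and at 6.49, 8.93, 10.99, 10.7 and 6.96 CPM in shRNA and 11.6, 18.7, 18.2, 12.7 and 10.5 CPM in shRNA+BBR livers. It rose in the shRNA livers by 0.70 ± 0.20 (edgeR adjusted p = 0.0247), and shRNA+BBR replicate 5 was below the highest shRNA liver.

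C1qa, C1qb and C1qc encode the 3 chains of complement C1q, which liver macrophages supply, and lie beside each other on chromosome 4 between 136880129 and 136898803. C1qa was at 52.9, 25, 47.6, 46.1 and 40.98 CPM in Vec and 49.6, 41.8, 42.1, 30.2 and 42.9 CPM in Vec+BBR livers, and at 26.7, 34.6, 33.7, 30.8 and 21.6 CPM in shRNA and 37.7, 55.8, 56.5, 43.5 and 41.03 CPM in shRNA+BBR livers. C1qb was at 55.1, 27.1, 51.3, 51.6 and 44.6 CPM in Vec and 52.9, 52.2, 49.3, 33.6 and 49.1 CPM in Vec+BBR livers, and at 30.5, 39, 38.5, 35.7 and 26.1 CPM in shRNA and 42.1, 53.5, 62.98, 47.2 and 42.5 CPM in shRNA+BBR livers. For both genes every shRNA+BBR liver was above every shRNA liver, whereas the Vec and Vec+BBR livers overlapped. C1qa rose by 0.67 ± 0.18 (edgeR adjusted p = 0.0175) and C1qb by 0.55 ± 0.17 (edgeR adjusted p = 0.0342) in the shRNA livers. C1qc, with a log2 difference of 0.53 ± 0.18 and no overlap, did not pass the test (edgeR adjusted p = 0.0546). Lyz2, lysozyme of myeloid cells, and Ctss, cathepsin S, had log2 differences of 0.46 and 0.51 in the shRNA livers (edgeR adjusted p = 0.0942 and 0.114). Lyz2 has a near-identical copy, Lyz1, and 2 libraries hold fractional counts for it, so a small part of its reads may be shared.

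Over the core set the median log2 fold change with BBR was 0.04 in the Vec and 0.54 in the shRNA livers. The summed level of the set was 168 to 399 CPM in Vec, 245 to 362 in Vec+BBR, 185 to 266 in shRNA and 288 to 404 in shRNA+BBR livers.

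The monocyte and recruited set was at low levels, between 0.0842 and 1.29 FPKM in group means, that is, per length of transcript. Itgam and Itgax, which encode the integrin chains CD11b and CD11c and lie beside each other on chromosome 7, and Cx3cr1, the fractalkine receptor, rose with BBR in the Vec livers. Itgam was at 0.601, 0.257, 0.245, 0.507 and 0.754 CPM in Vec and 0.812, 1.97, 1.71, 1.16 and 0.942 CPM in Vec+BBR livers, and at 0.32, 0.502, 0.483, 0.307 and 0.375 CPM in shRNA and 0.582, 0.663, 0.995, 0.502 and 0.342 CPM in shRNA+BBR livers. Every Vec+BBR liver was above every Vec liver, and the log2 fold change was 1.45 ± 0.33 (edgeR adjusted p = 0.00611), and in the shRNA livers the difference was 0.64 ± 0.36 (edgeR adjusted p = 0.218). Cx3cr1 was at 0.852, 0.257, 0.785, 0.558 and 1.13 CPM in Vec and 1.03, 3.85, 2.24, 1.16 and 2.26 CPM in Vec+BBR livers, and at 0.503, 0.781, 0.805, 0.482 and 0.708 CPM in shRNA and 0.921, 0.829, 1.14, 1.51 and 0.831 CPM in shRNA+BBR livers. Its log2 differences with BBR were 1.52 ± 0.35 (edgeR adjusted p = 0.00615) in Vec and 0.67 ± 0.37 (edgeR adjusted p = 0.204) in shRNA livers, where the groups did not overlap.

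Itgax, also a marker of dendritic cells, was at 1.55, 0.579, 1.96, 1.22 and 1.60 CPM in Vec and 1.88, 4.43, 2.62, 2.95 and 2.59 CPM in Vec+BBR livers, and at 0.503, 0.669, 1.21, 0.92 and 0.583 CPM in shRNA and 1.36, 1.91, 1.94, 2.19 and 1.03 CPM in shRNA+BBR livers. It rose in both vector groups, by 1.04 ± 0.29 (edgeR adjusted p = 0.0179) and 1.10 ± 0.31 (edgeR adjusted p = 0.0238). In each vector group 1 treated liver was inside the untreated range. Ccr2, the receptor that brings monocytes out of the marrow, had 2 to 25 counts per liver, with 2 livers at or under the floor. It was at 0.501, 0.129, 0.392, 0.456 and 0.33 CPM in Vec and 0.513, 0.896, 0.666, 0.625 and 0.518 CPM in Vec+BBR livers, and at 0.32, 0.279, 0.322, 0.219 and 0.167 CPM in shRNA and 0.727, 1.04, 0.852, 0.593 and 0.147 CPM in shRNA+BBR livers. The log2 fold change passed the test in the shRNA livers (1.36 ± 0.39, edgeR adjusted p = 0.0252) and not in the Vec livers (0.80 ± 0.38, edgeR adjusted p = 0.161), where the groups did not overlap. In the shRNA livers shRNA+BBR replicate 5 (0.147 CPM) lay below every untreated liver. The call there was kept in 16 of the 20 fits without 1 library. Ly6c2, the antigen of inflammatory monocytes, passed in neither vector group, with log2 differences of -0.33 and 0.51. Ly6c2 has a near-identical neighbour, Ly6c1, of endothelial cells, and 11 libraries hold fractional counts for it, so its values are uncertain.

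Among the inflammatory mediators, Il1rn rose with BBR in both vector groups. Il1rn (ENSMUSG00000026981, chromosome 2 from 24336853 to 24351494) encodes the interleukin-1 receptor antagonist, which hepatocytes as well as macrophages release. It was at 4.96, 5.46, 5.00, 3.85 and 6.41 CPM in Vec and 10.5, 8.24, 8.13, 7.54 and 8.33 CPM in Vec+BBR livers, and at 1.92, 2.90, 2.86, 1.93 and 1.71 CPM in shRNA and 4.75, 4.97, 7.06, 4.79 and 3.72 CPM in shRNA+BBR livers. The 2 BBR groups lay wholly above their untreated groups, by 0.73 ± 0.17 (edgeR adjusted p = 0.00684) and 1.16 ± 0.18 (edgeR adjusted p = 0.00207), and both calls held in all 20 fits without 1 library.

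Il1b, the gene of interleukin-1 beta, was at 0.701, 0.45, 0.49, 1.42 and 0.801 CPM in Vec and 0.556, 1.03, 0.999, 0.803 and 0.659 CPM in Vec+BBR livers, and at 0.137, 0.279, 0.644, 0.876 and 0.292 CPM in shRNA and 0.775, 0.704, 1.99, 1.32 and 0.734 CPM in shRNA+BBR livers. It rose in the shRNA livers by 1.28 ± 0.42 (edgeR adjusted p = 0.0433), a call lost in 8 of the 20 fits without 1 library (edgeR adjusted p up to 0.156), and differed by 0.05 ± 0.41 in the Vec livers. Ccl2, the monocyte chemoattractant, was at 0.193 to 1.62 CPM in Vec and 0.565 to 1.33 CPM in Vec+BBR livers, with log2 differences with BBR of -0.07 ± 0.48 and 0.51 ± 0.47 that did not pass the test. Neither did those of the chemokine Ccl6 (0.38 ± 0.21 and 0.47 ± 0.21) and of the endotoxin receptor Tlr4 (0.18 ± 0.35 and 0.89 ± 0.36). Tnf, not tested, was at 0.0643 to 0.203, 0.0855 to 0.377, 0 to 0.201 and 0.0829 to 0.388 CPM in the 4 groups, at about its floor.

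Leaving out 1 library moved the numbers of members called. In the Vec livers the 12 calls with BBR became 6 without Vec+BBR replicate 2 and 7 without any 1 of Vec replicates 1 and 4 and Vec+BBR replicates 4 and 5. They were 9 without Vec replicate 2, when Cd68, Cd9 and Mmp12 were not called. In the shRNA livers the 15 calls with BBR became 6 without shRNA+BBR replicate 3 and 9 without shRNA replicate 5, and 18 without Vec replicate 2, a library outside this comparison that enters the shared fit. Without shRNA+BBR replicate 3, Cd68, Fcer1g, Gpnmb, Cd9, Lgals3 and Il1rn were the 6 still called. The calls of C1qb, Tyrobp, Ccr2 and Itgax in the shRNA livers were kept in 14, 16, 16 and 15 of the 20 fits.

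Knockdown of Pparg without BBR, the comparison of shRNA with Vec livers, lowered 3 members and raised none, where 7.91% and 5.28% of all genes tested were lower and higher. The count of 3 lower of 34 is near the share over all genes. Il1rn, without overlap, fell by 1.19 ± 0.18 in log2 (edgeR adjusted p = 0.000229), Cd68 by 0.72 ± 0.21 (edgeR adjusted p = 0.0274) and Gpnmb by 1.37 ± 0.44 (edgeR adjusted p = 0.0441). The log2 differences of 32 of the 34 tested members were below 0, with a median of -0.44 beside -0.01 over all genes. The exceptions were Cd163 (0.60 ± 0.28, edgeR adjusted p = 0.16) and Vsig4 (0.02 ± 0.20). Over all genes the difference was above 0 for 6009 of 12342. Many members varied together from liver to liver, so this count of directions is a description. Nr1h3 did not overlap between the groups and did not pass the test (-0.19 ± 0.08, edgeR adjusted p = 0.0987). C1qa (-0.53 ± 0.18, edgeR adjusted p = 0.0505) and Fcer1g (-0.69 ± 0.23, edgeR adjusted p = 0.054) were just outside the threshold.

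This comparison rests on few livers. Without Vec replicate 2, the Vec liver low in macrophage genes, 9 members were called lower: Cd68, Il1rn, C1qa, C1qb, C1qc, Lyz2, Fcer1g, Itgax and Lgals3. Without Vec replicate 3 or 5, or shRNA replicate 1, 4 or 5, Il1rn alone was called. Without Vec replicate 4, shRNA replicate 2 or shRNA+BBR replicate 5, 5 members were called. DESeq2 called 6. The call of Gpnmb was lost in 11 of the 20 fits without 1 library, with adjusted p-values up to 0.126, and that of Cd68 in 5, up to 0.0899.

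Under BBR, the comparison of shRNA+BBR with Vec+BBR livers, 2 members were lower and none was higher, where 4.82% and 3.31% of all genes tested were called. The count of lower members is near the share over all genes. Il1rn fell, without overlap, by 0.76 ± 0.17 in log2 (edgeR adjusted p = 0.0104), and Itgam fell by 1.09 ± 0.32 with overlap (edgeR adjusted p = 0.0376). The lipid-associated genes had log2 differences of -1.09 ± 0.38 for Gpnmb, -0.74 ± 0.30 for Trem2, -0.68 ± 0.44 for Mmp12, -0.46 ± 0.25 for Lgals3 and -0.02 ± 0.24 for Cd9, and none passed the test (edgeR adjusted p = 0.0773, 0.137, 0.357, 0.259 and 0.964). Marco had the largest positive difference, 1.40 ± 0.63 (edgeR adjusted p = 0.175). The medians were -0.68 in the lipid-associated set, 0.14 in the resident Kupffer set and 0.06 in the core set, beside 0.00 over all genes. Itgam was lost in 8 of the 20 fits without 1 library (edgeR adjusted p up to 0.124). Only Il1rn was called without Vec+BBR replicate 2 or 3, shRNA replicate 3 or shRNA+BBR replicate 1, 2 or 5, and 4 members were called without Vec+BBR replicate 1.

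Whether BBR acted differently on these genes in the 2 vector groups was tested as the difference of the 2 BBR effects. No member passed this test in edgeR, where 0.146% of all genes, 18 of 12342, did. The difference was above 0 for 30 of the 34 members, with a median of 0.37. Over all genes it was above 0 for 6366 of 12342, with a median of 0.01. Many members varied together from liver to liver, so this count of directions is a description. At an unadjusted p under 0.05 there were 6 members of 34, and 18.5% of all genes. These were Fcer1g (difference 1.08 ± 0.32, edgeR adjusted p = 0.108), Marco (2.42 ± 0.84, edgeR adjusted p = 0.15), C1qa (0.71 ± 0.25), C1qb (0.50 ± 0.24), Timd4 (0.75 ± 0.36) and Il1b (1.22 ± 0.58), all with a difference above 0. For Marco and Timd4 this was a smaller fall with BBR in the shRNA livers. Marco changed by -3.03 in Vec and -0.61 in shRNA livers, and Timd4 by -0.78 and -0.03. DESeq2 called 1 member, Fcer1g. For the lipid-associated genes the 95% intervals of the differences all held 0. The values were 0.28 (95% interval -0.92 to 1.48) for Gpnmb, 0.25 (-0.50 to 1.00) for Lgals3, 0.09 (-0.84 to 1.02) for Trem2, 0.48 (-0.24 to 1.20) for Cd9 and 0.47 (-0.89 to 1.84) for Mmp12. At their upper ends, a larger effect in the shRNA livers, the intervals of Trem2, Mmp12 and Cd9 reached the size of the Vec effect. Those of Gpnmb and Lgals3 stopped short of both effects. At the lower ends, a smaller effect in the shRNA livers, every one of these intervals stopped short of the size of the Vec effect.

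**Figure D4:**
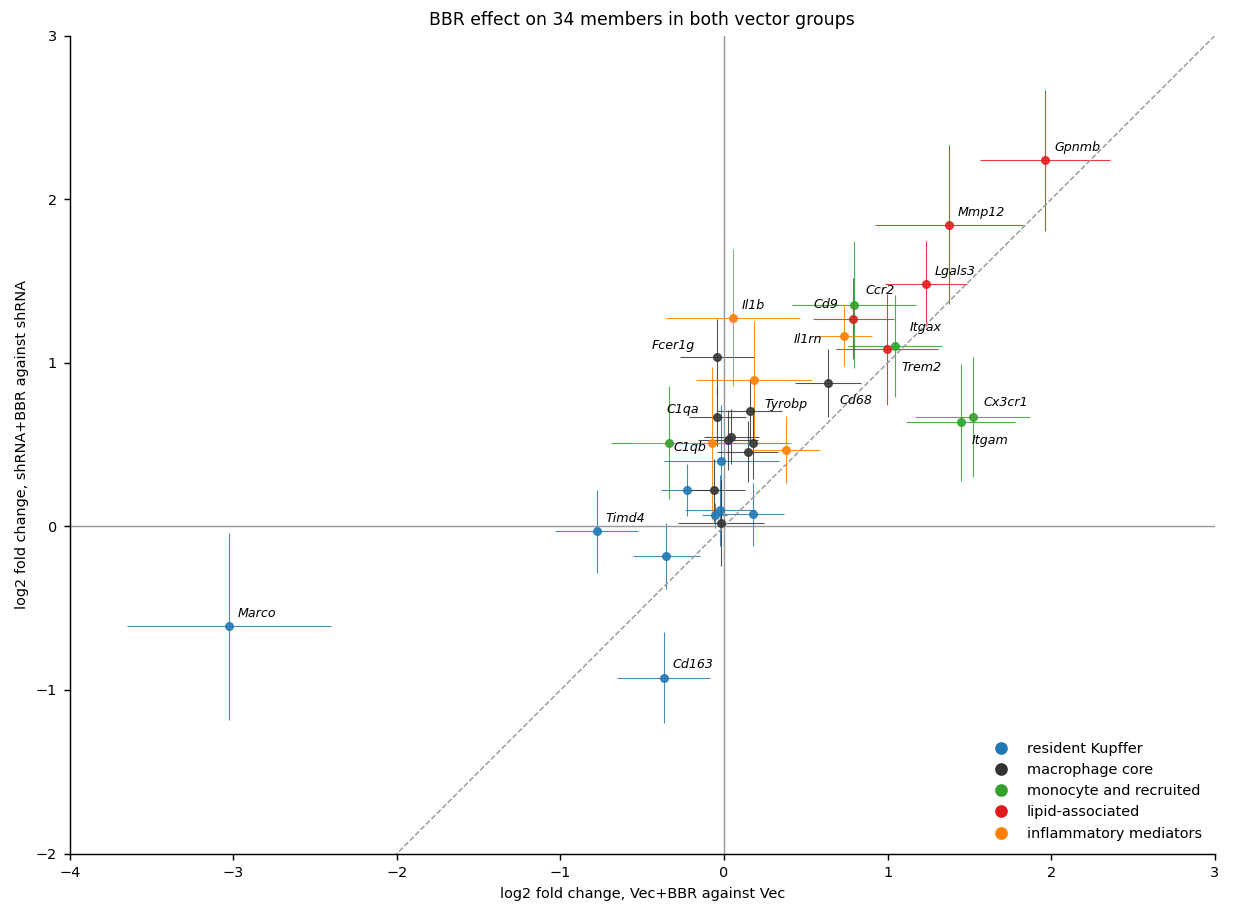
log2 fold change with BBR in Vec livers (x axis) against that in shRNA livers (y axis) for the 34 tested members, coloured by set, with bars for 1 SE on each axis and names for members called in either comparison. The lipid-associated genes lie near the dashed line of equal effects at the upper right, Fcer1g, C1qa, C1qb, Tyrobp and Il1b lie above it near x = 0, and Marco lies far to the left.

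Per transcript length, the members spanned a wide range of levels. In Vec livers the highest by FPKM were Nr1h3 (45.8 ± 1.89, SD, n = 5), Lyz2 (44.9 ± 17.3), C1qb (40.2 ± 10.7), C1qa (38.9 ± 10.5), C1qc (38.4 ± 12.1) and Cd5l (38.2 ± 15.5), which all lay within 1 SD of Lyz2. Clec4f (23.4 ± 6.25), Ctss (20.1 ± 6.63) and Tyrobp (18.4 ± 4.73) followed. The lipid-associated genes were lower in Vec livers, from 1.06 FPKM for Trem2 to 8.25 for Lgals3. In Vec+BBR livers they were at 2.35 for Trem2, 6.81 for Gpnmb, 8.52 for Mmp12, 13.7 for Cd9 and 21.5 for Lgals3, which was then at about the FPKM of Clec4f (21.8).

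Within groups, the resident Kupffer and core genes varied together from liver to liver. Deviations of log2 CPM (with 0.25 added) from the group mean were compared over the 20 livers, which share their group means and can differ in depth and cell makeup, so these correlations are descriptions. The median Pearson r was 0.687 over the 36 pairs of resident Kupffer genes, 0.765 over the 45 pairs of core genes and 0.694 between the sets. Without Vec replicate 2, an alternative chosen after the data were seen, these medians were 0.53, 0.584 and 0.488. Nr1h3 was the exception, with a median r of -0.263 with the other 8 resident Kupffer genes (-0.0375 without that liver), against 0.481 for Spic and 0.664 to 0.795 for the rest (0.397 for Spic and 0.417 to 0.649 for the rest without it). Among the lipid-associated genes the median was 0.556 (0.602 without it), against -0.0787 (-0.191) with resident Kupffer genes and 0.0983 (0.161) with core genes. Cd68, counted in the core, had a median r of 0.399 with the resident Kupffer genes, the lowest of the core set, and a median of -0.0619 without Vec replicate 2. That liver deviated by -0.858 in the resident Kupffer and -0.823 in the core set, and by -0.156 in the lipid-associated set.

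**Figure D5:**
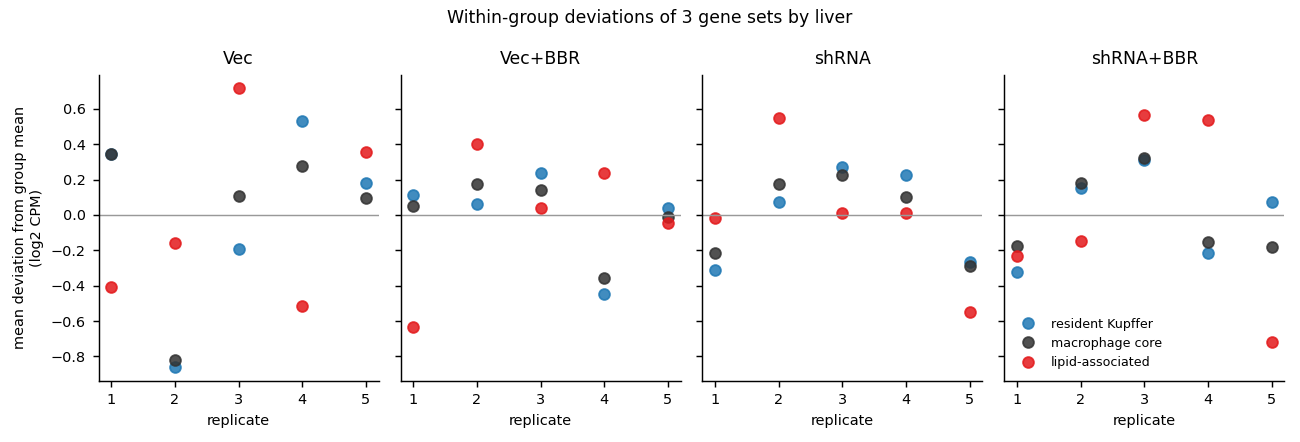
Mean deviation from the group mean in log2 CPM (y axis) of the resident Kupffer (blue), core (black) and lipid-associated (red) genes for each replicate (x axis) in the 4 groups. In Vec replicate 2 the blue and black points are far below 0 at -0.858 and -0.823 and the red point is at -0.156, and the numbers of the replicates have no order.

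The 10 genes outside the members whose deviations were most like the mean of the resident Kupffer set over the 20 livers were Fcgr4 (r = 0.946), Gbp9 (0.895), Cfp (0.885), Cybb (0.884), Nckap1l (0.877), H2-DMa (0.874), Ncf1 (0.874), Il18bp (0.873), Spn (0.873) and Cd74 (0.873). Fcgr4 is an Fc receptor of macrophages, Cfp encodes the complement protein properdin, Cybb and Ncf1 encode subunits of the phagocyte NADPH oxidase, and H2-DMa and Cd74 act in loading of MHC class II. Without Vec replicate 2 the values were 0.756 to 0.916.

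Further genes of the same cells were read from wider lists. Over all genes tested, BBR raised 7.58% and lowered 7.88% in the Vec livers, and raised 8.37% and lowered 7.28% in the shRNA livers. Of 20 other Kupffer genes, BBR raised Mrc1 (0.48, edgeR adjusted p = 0.0333), the mannose receptor, which endothelium also makes, and lowered Slco2b1 (-0.28, edgeR adjusted p = 0.0178) in the Vec livers. In the shRNA livers it raised Slc11a1 (0.60, edgeR adjusted p = 0.0482) and lowered Slco2b1 (-0.37, edgeR adjusted p = 0.00634), Fcna (-0.59, edgeR adjusted p = 0.0124) and the iron exporter Slc40a1 (-0.36, edgeR adjusted p = 0.0452). Of 21 other lipid-associated genes, all tested, 11 rose and 1, Ctsl, fell in the Vec livers, and 12 rose and none fell in the shRNA livers. Spp1, the gene of osteopontin, rose by 1.00 (edgeR adjusted p = 0.00745) and 0.92 (edgeR adjusted p = 0.0164), and Fabp5, a fatty acid binding protein, by 1.38 (edgeR adjusted p = 0.0119) and 1.46 (edgeR adjusted p = 0.0143). Anxa2, an annexin, rose by 1.47 (edgeR adjusted p = 0.0272) and 1.83 (edgeR adjusted p = 0.0132). Hepatocytes and other liver cells make several genes of this list as well, Cd36 among them (0.55 in the Vec livers, edgeR adjusted p = 0.00111). The medians of this list were 0.34 and 0.40.

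The wider macrophage and monocyte lists held more calls with BBR in the shRNA livers. Of 34 other macrophage genes none was called in the Vec livers (3 at an unadjusted p under 0.05 in edgeR), and 13 rose and none fell in the shRNA livers, among them Cyba (0.95, edgeR adjusted p = 0.00801) and Fcgr4 (1.15, edgeR adjusted p = 0.0142). The difference between the vector groups passed the test for none of the 34, with 8 at an unadjusted p under 0.05 in edgeR, so it is not shown that the response of this list differs by vector. Of 10 other monocyte genes tested, of 13 in the list, 1 rose in the Vec livers, Ifi204 (0.66, edgeR adjusted p = 0.0392), and 7 rose in the shRNA livers, among them Plac8 (0.97, edgeR adjusted p = 0.00369) and Chil3 (2.78, edgeR adjusted p = 0.00674). Fn1, which hepatocytes make in quantity, fell (-0.61, edgeR adjusted p = 0.00619). Without BBR, knockdown lowered Plac8 (-0.76, edgeR adjusted p = 0.00719), Chil3 (-2.34, edgeR adjusted p = 0.016), Cyba (-0.73, edgeR adjusted p = 0.0261) and Irf8 (-0.68, edgeR adjusted p = 0.0337).

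Of 25 growth factors and chemokines that act on macrophages, 16 passed the filter. BBR lowered Il18 (-1.01, edgeR adjusted p = 0.000309), Cxcl12 (-0.38, edgeR adjusted p = 0.00617), Ccl5 (-2.32, edgeR adjusted p = 0.0129) and Cxcl9 (-1.98, edgeR adjusted p = 0.0431) in the Vec livers. It raised Cxcl16 (0.52, edgeR adjusted p = 0.0197) and Ccl3 (2.33, edgeR adjusted p = 0.0303) in the shRNA livers. It also raised Csf2ra there (0.67, edgeR adjusted p = 0.049), which is in this list but encodes a receptor chain. Of 20 regulators of macrophage identity, BBR raised Zeb2 (0.85, edgeR adjusted p = 0.00342) in the Vec livers and Zeb2 (0.56, edgeR adjusted p = 0.0368), Irf8 (0.81, edgeR adjusted p = 0.0154), Spi1 (0.76, edgeR adjusted p = 0.0165), which encodes PU.1, and Pparg (1.28, edgeR adjusted p = 0.00773) in the shRNA livers. Nr1h2, the other LXR gene, fell in both (-0.25 and -0.25, edgeR adjusted p = 0.0327 and 0.0371).

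Genes of other cell types moved in the same comparisons, and their part in the results above was not tested. Of 12 stellate cell genes, 6 rose with BBR in the Vec livers and 5 in the shRNA livers, with Col1a1 at 1.18 and 1.70 (edgeR adjusted p = 0.0148 and 0.00463), and their summed level was 275 to 495 CPM in Vec, 545 to 577 in Vec+BBR, 372 to 425 in shRNA and 451 to 608 in shRNA+BBR livers. Of 12 genes of sinusoidal endothelium, 7 rose in the Vec livers, led by Gpr182 (0.77, edgeR adjusted p = 0.000739), and in the shRNA livers 2 rose and 2 fell; their sums were 181 to 235, 235 to 309, 230 to 309 and 235 to 301 CPM in the same order of groups. Of 17 T and NK cell genes 11 were tested, and 6, led by Nkg7 (-2.21, edgeR adjusted p = 0.0169), fell with BBR in the Vec livers and 2 rose in the shRNA livers, with sums of 2.25 to 19.2, 3.04 to 6.28, 2.51 to 9.11 and 6.06 to 17.6 CPM.

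The remaining lists mark hepatocytes and cells that are rare in liver. Of 13 hepatocyte genes 6 fell with BBR in the Vec livers, led by Serpina1a (-1.12, edgeR adjusted p = 0.000112), and 2 rose and 2 fell in the shRNA livers, with sums of 148000 to 184000, 115000 to 158000, 138000 to 153000 and 127000 to 148000 CPM in Vec, Vec+BBR, shRNA and shRNA+BBR livers. B cell genes summed to 1.41 to 8.02, 2.68 to 6.23, 1.88 to 4.11 and 3.91 to 52.5 CPM, and the highest value came from shRNA+BBR replicate 4. Of 4 tested B cell genes, Jchain (3.64, edgeR adjusted p = 0.0164) and Ighm (1.13, edgeR adjusted p = 0.0366) rose in the shRNA livers. Neutrophil genes, 3 of 12 tested, summed to 1.41 to 12.3, 3.04 to 7.99, 1.33 to 4.24 and 2.49 to 12.7 CPM, S100a8 rose in the shRNA livers (2.14, edgeR adjusted p = 0.0179), and Ly6g was at 0 in all Vec+BBR and all shRNA livers. Dendritic cell genes, 2 of 10 tested, summed to 55.6 to 88.5, 47.4 to 66.4, 52.1 to 75.8 and 58.1 to 119 CPM and none was called with BBR in edgeR (1 at an unadjusted p under 0.05 in each vector group). Cholangiocyte genes, 6 of 8 tested, summed to 2.84 to 5.66, 4.32 to 6.14, 4.11 to 5.27 and 4.64 to 6.66 CPM, and erythroid genes, 7 tested, to 632 to 1340, 766 to 2330, 408 to 809 and 527 to 1300 CPM. None of either list was called with BBR in edgeR, with 1 cholangiocyte gene in each vector group and 4 erythroid genes in the shRNA livers at an unadjusted p under 0.05.

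In the comparisons by vector, most called genes of these lists were lower without BBR. Over all genes tested, 7.91% were lower and 5.28% higher in shRNA against Vec livers. There, 4 of 21 other lipid-associated, 2 of 34 other macrophage and 2 of 20 other Kupffer genes were lower. So were 2 of 10 other monocyte, 3 of 20 regulator and 2 of 16 growth factor and chemokine genes. No gene of these lists was higher. Counts such as 2 of 34 and 2 of 20 are near the share over all genes. The regulator list holds Pparg, the target of the shRNA, which was lower in every shRNA liver than in every Vec liver. Among other cell types, 4 sinusoidal endothelial genes were higher, and 2 T and NK cell, 4 hepatocyte and 1 stellate cell genes were lower. In shRNA+BBR against Vec+BBR livers, 3.31% of all genes tested were higher and 4.82% lower. Here 3 T and NK cell genes, led by Trbc2 (1.75, edgeR adjusted p = 0.0272), 1 B cell gene and 1 dendritic cell gene were higher. In turn, 1 hepatocyte and 1 stellate cell gene were lower. Of the wider macrophage lists, Il18, Ccl5 and Id3, which is in both the other Kupffer and the regulator list, were higher. Pparg, the target of the shRNA, was lower. The part of these other cells in the members' values was not tested.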

How the data were processed

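Poly(A) RNA of 20 livers was sequenced on an Illumina NovaSeq. The authors deposited, for each library, expected counts (estimated counts that need not be whole, 91.9% to 93.3% of them whole in each library) and FPKM (fragments per kilobase of transcript, scaled to library size) for 22298 genes. The build is mm10 per the submitters' processing notes, and the aligner, counter and strand setting are not given in the sources used here. Groups followed the treatment labels, while doses, ages and the vector came from the study's methods.

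Expected counts were rounded and fitted in edgeR 4.0.16 (R 4.3.3) with all 4 groups, TMM normalisation, filterByExpr by group (12342 genes kept, of which 34 are members) and the quasi-likelihood test, with Benjamini-Hochberg adjustment over all genes tested and a threshold of 0.05. CPM are per TMM-scaled library. Total counts were 17432904 to 25024099, and the floor of 3 counts covers counting error only. Alternatives were RLE size factors, no filter, at least 10 counts in every library, DESeq2 1.42.0, only the 2 groups compared, a replicate block, and leaving out each of the 20 libraries. The fit was tested on simulated data. FPKM were used only to order levels between genes.

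All 35 members are named, with values of every liver for those called in any comparison and for Clec4f, Timd4, Vsig4, Cd5l, Adgre1, Cd68, Trem2 and Gpnmb, and up to 5 called genes in order of adjusted p for each other list and comparison, apart from a gene that is not reported here. The members and lists were chosen with earlier results of these data known. Gene positions are from GENCODE on GRCm38 (mm10), and promoter sequences are from RefSeq on GRCm38.p6, the same assembly.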

Additional observations from a re-analysis of the deposited data

Results flagged for a closer look

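Among 92 groups of 5 livers, from 23 members whose values were given liver by liver, 2 livers stood far from the rest of their group by the ratio of gap to range, with a limit of 0.71 that chance passes in about 1 in 20 groups. C1qb was at 33.6 CPM in Vec+BBR replicate 4, the lowest of its group, with a ratio of 0.806. Il1rn was at 10.5 CPM in Vec+BBR replicate 1, the highest of its group, with a ratio of 0.731.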

How the results depend on the processing

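Of the fitted log2 differences of members under all alternatives, 4171 kept their side of the threshold, 116 lost their call and 40 gained one. Direction changed in 103 of the 4171, none of them called, and in none of the others. With 1 library left out, the number of members called was 6 to 12 for Vec+BBR against Vec (12 with all libraries), 1 to 9 for shRNA against Vec (3), 1 to 4 for shRNA+BBR against Vec+BBR (2), 6 to 18 for shRNA+BBR against shRNA (15) and 0 throughout for the difference of the BBR effects. DESeq2 called 6 members in shRNA against Vec and 1 in the difference of the BBR effects. For shRNA+BBR against Vec+BBR, 1 member was called with no filter on low counts, with at least 10 counts in every library and with only the 2 groups compared. The cause was not tested.

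The replicate numbers did not pair the samples: deviations of same-numbered livers correlated above 0.1 for 3 of the 5 numbers in the pair shRNA and shRNA+BBR and for 0 or 1 in every other pair of groups. With the number as a replicate block, 11, 2, 1, 14 and 0 members were called in the same order of comparisons. The calls lost with it were Timd4 in Vec+BBR against Vec (log2 difference -0.74, edgeR adjusted p = 0.0764), Gpnmb in shRNA against Vec (-1.36, 0.0507), Itgam in shRNA+BBR against Vec+BBR (-1.08, 0.0572) and Cd163 in shRNA+BBR against shRNA (-0.93, 0.0515), the only member called lower there.

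Over all genes, the difference of the BBR effects was called for 18 genes by edgeR and 338 by DESeq2, and 1932 genes called in shRNA+BBR against shRNA became 661 without shRNA+BBR replicate 3. Low counts limit Tnf, Ccr2, Spic, Trem2, Itgam, Cx3cr1, Ly6c2, Il1b, Ccl2 and Tlr4, each at 8 counts or fewer in its lowest liver. Wide intervals limit what the difference of the BBR effects can show.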
